A study of Mus musculus with 6 samples.

Results

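Caspase 9 (Casp9) and 8 genes for enzymes of the exocrine pancreas were followed through 6 RNA-seq libraries of mouse pancreatic islets. The 9 genes were the elastase gene Cela2a, Casp9, whose exons overlap those of Cela2a on the opposite strand, and the acinar genes Cpa1, Cpb1, Cela1, Cela3b, Ctrb1, Pnlip and Prss2. They were chosen by symbol and position, and selected on earlier sight of these counts, in which Casp9 was high and the enzyme genes were low. Their levels are therefore given as a description. Of the 9 genes, 8 had a row among the 15286 genes of the count table, and Cela3b was not analysed here.

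The libraries came from the islets of 12 weeks old male mice, 3 wildtype (WT) and 3 homozygous flox/flox mutants of the long non-coding RNA P07Rik, on a C57Bl/6N background, with 1 library per mouse. The flox/flox allele carries a trapping cassette with a promoter-driven neo gene in the first intron of P07Rik, which ends transcription early in every cell, so no Cre was involved. Both groups were littermates and were handled alike. The mice were fasted overnight, and their isolated islets recovered for 2 h in 3 mM glucose before RNA was extracted. Litter 1 gave WT2772 and WT2777 with the mutants KO2775 and KO2776, and litter 2 gave WT2931 with the mutant KO2938, where KO stands for flox/flox in the labels. P-values from these libraries measure the spread between mice. Counts of P07Rik were not analysed here, and the genotype of each library was taken from its label.

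Acinar cells make up most of the pancreas and secrete digestive enzymes, many of them as inactive precursors, into the ducts that lead to the gut. Islets are freed from this tissue by digestion, and in this study a density gradient and picking by hand then parted them from the exocrine tissue. Caspase 9 is unrelated to digestion: it is the initiator protease of the intrinsic pathway of apoptosis, activated on the apoptosome once cytochrome c has left the mitochondria.

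The total count was 698588 for WT2772, 793596 for WT2777 and 690726 for WT2931, against 646141 for KO2775, 611181 for KO2776 and 800255 for KO2938. A large part of it lay in AY036118, a gene within ribosomal RNA sequence. Its share was 14.5%, 19.97% and 13.6% in WT2772, WT2777 and WT2931. The mutants KO2775, KO2776 and KO2938 had shares of 14.5%, 22.1% and 41.0%, so KO2938 had the fewest counts left for other genes relative to its total. Levels are therefore given as CPM, counts scaled to a common library size after TMM normalization, beside the counts themselves.

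In the GENCODE M21 annotation of GRCm38 (mm10), Casp9 (ENSMUSG00000028914) covers 22365 bp of chromosome 4, from 141793612 to 141815976 on the plus strand. Cela2a (ENSMUSG00000058579), a pancreatic elastase, lies on the minus strand from 141814962 to 141826160, so the genes meet tail to tail and share 1015 bp. Within this stretch the last exon of the longest Cela2a transcript, 94 bp from 141814962 to 141815055, falls inside the last exon of the longest Casp9 transcript, which runs from 141813595 to 141815976 (2382 bp). The 3′ UTR of Casp9 takes up 2292 bp of that exon. The shared bases were 1.81% of the exon bases of Casp9 and 5.46% of those of Cela2a. Ctrc, the gene of chymotrypsin C, reaches the same exon through 1 transcript, annotated as a target of nonsense-mediated decay, but had no row in the table used here and was not analysed. The bases where the coding end of Cela2a lies in the 3′ UTR of Casp9, chr4:141815038-141815055 of GRCm38, are printed below from the GENCODE transcripts to show how the same DNA is read in both genes. Capitals mark the stop codon of Cela2a and the same bases on the other strand.
Cela2a: gtgatggcaaggaacTAA
Casp9: TTAgttccttgccatcac
The libraries were made with a strand-specific kit, and the default of the counting program assigns a read to a gene on the read's own strand. Which strand the reads of this kit represent was not given in the sources used here, and the table holds no read positions. For every gene given here, with or without an annotated overlap, counts of its own transcript and counts of RNA from the opposite strand therefore cannot be told apart. The counts of Casp9, of the enzyme genes and of the markers of other cell types are counts assigned to these genes, and whether they measure the genes' own mRNA was not tested.

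**Figure D1:**
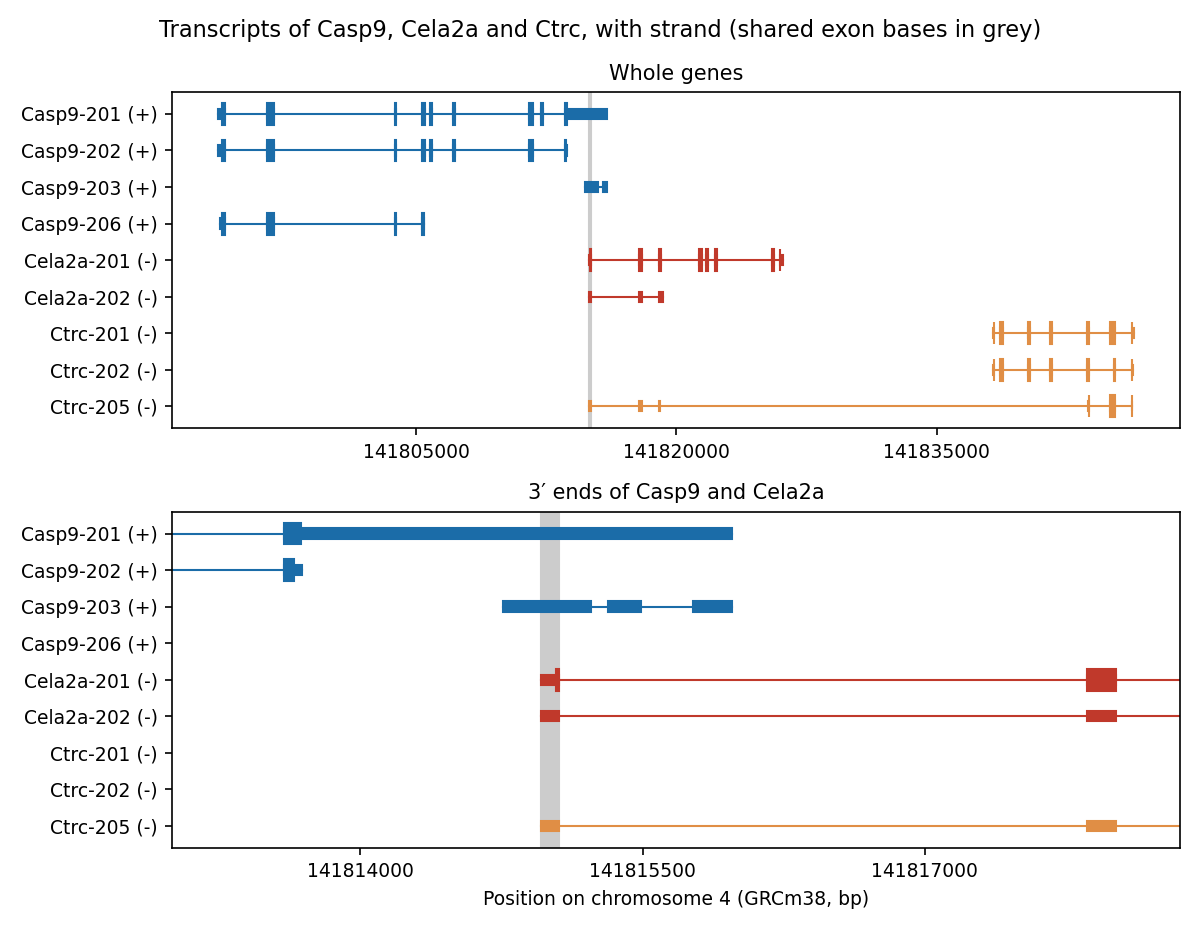
Transcripts of Casp9 (blue), Cela2a (red) and Ctrc (orange) on chromosome 4 that have coding bases or reach the shared exon, with position in bp on the horizontal axis, the strand in parentheses, coding exons as tall boxes, untranslated and non-coding exons as low boxes and introns as lines. The grey band marks the 94 bp from 141814962 to 141815055 where the last exon of Cela2a lies inside the last exon of Casp9.

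Casp9 was counted 1570 times in WT2772, 1574 times in WT2777 and 2329 times in WT2931. In the flox/flox libraries it was counted 1404 times in KO2775, 749 times in KO2776 and 1142 times in KO2938. By counts every WT library was above every flox/flox library, with WT2931 the highest and KO2776 the lowest of the 6. In CPM the WT libraries had 2154, 2043 and 3149, and the flox/flox libraries had 2078, 1319 and 1996, in the same order of mice. On this scale the groups overlapped, since KO2775 lay between WT2772 and WT2777. Whether they overlapped depended on the denominator. In percent of all counts they overlapped too, while in percent of the counts without the 10 most abundant genes every flox/flox library was below every WT library, with KO2938 only just below WT2777. The means on that scale were 0.369 ± 0.0937 in WT and 0.270 ± 0.0652 in flox/flox islets (SD, n = 3 each). The highest library had 2.39 times the CPM of the lowest. By mean count, 1461 per library, Casp9 stood at rank 21 of 15286 genes and at rank 6 of the protein-coding genes. Per length it had 409 CPM per kb of exon, rank 179 of the 15258 genes matched to the annotation. Insulin 2 (Ins2) encodes the main hormone of islets and is known as one of their most abundant mRNAs. Here it had 169 CPM per kb (rank 463), low for islets, and the count of Casp9 per length was 2.41 times that of Ins2. Ins2 has no annotated exon overlap on the opposite strand, but its counts are subject to the same doubt about strand, so the ratio compares assigned counts and not the mRNA of the genes.

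Casp9 averaged 2449 ± 609 CPM in WT and 1798 ± 417 CPM in flox/flox islets (SD, n = 3 each). The log2 fold change was -0.45 (SE 0.21), with an adjusted p of 1.00 in edgeR's quasi-likelihood test and an unadjusted p of 0.0501. Blocked on litter, the value was -0.42 (SE 0.13), with an unadjusted p of 0.0023 in edgeR and an adjusted p of 0.51. Casp9 was thus not called between the genotypes in either fit. None of the 5478 genes that passed the low-count filter was called by edgeR without the block (0%), while 101 genes (1.84%) had an unadjusted p under 0.05, and DESeq2 also called 0. The value for Casp9 rested on single mice: the log2 fold change was -0.21 without WT2931 and -0.26 without KO2776.

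Litter was compared in the fit that also holds genotype. Casp9 averaged 1899 ± 389 CPM in the libraries of litter 1 (SD, n = 4) and 2572 CPM in litter 2, where WT2931 had 3149 and KO2938 had 1996. The high mean of litter 2 came from WT2931, and KO2938 lay within the range of litter 1. The log2 fold change of litter 2 over litter 1 was 0.41 (SE 0.14), with an adjusted p of 0.040 in edgeR. Litter called many genes, 620 of 5478 (11.3%), of which 333 were higher and 287 lower in litter 2, and 1379 genes (25.2%) had an unadjusted p under 0.05. That number depended on the method, with 171 genes called by DESeq2 and 265 by edgeR with library size only. The call for Casp9 was lost when any of 4 libraries was left out, with adjusted p-values in edgeR of 0.087 without WT2772, 0.13 without WT2777, 0.50 without WT2931 and 0.21 without KO2776. Without WT2931, litter 2 was the single library KO2938, which was assumed to vary like the others. Over all 15 alternatives the adjusted p ran from 0.0023 to 0.73, and 8 of them kept it under the threshold of 0.05. The difference between the genotypes was tested for a difference between litters as an interaction, which was -0.36 on the log2 scale (SE 0.23), with an adjusted p of 0.79 in edgeR. Litter 2 holds 1 library of each genotype, so the spread in this test came from litter 1 alone.

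Cela2a, on the other strand, was counted 5, 4 and 2 times in WT2772, WT2777 and WT2931. It was counted 0 times in KO2775, 2 times in KO2776 and 3 times in KO2938. The groups overlapped, and the library with most Casp9, WT2931, had fewer counts of Cela2a than the other WT libraries. Summed over mice, 11 counts in WT stood against 5 in flox/flox islets, a ratio of flox/flox to WT of 0.56 after scaling to library size. Its exact 95% interval ran from 0.15 to 1.75 and, like the other intervals of ratios given here, covers counting error only and not the spread between mice. A difference of Cela2a between the genotypes was not detectable at this depth. Cela2a did not pass the low-count filter of the edgeR test, nor did any other of the 7 enzyme genes with a row, so of the 9 genes only Casp9 was tested there.

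The ratio of Casp9 to Cela2a, per kb of exon and with 0.5 added to each count, was 6.56, 6.86 and 8.27 on the log2 scale in WT2772, WT2777 and WT2931. The flox/flox libraries KO2775, KO2776 and KO2938 had 9.86, 6.64 and 6.76. In all 6 libraries Casp9 was far above Cela2a per length, and the groups overlapped. The mean was 7.23 ± 0.91 in WT and 7.75 ± 1.83 in flox/flox islets (SD, n = 3 each), a difference of 0.52 with p = 0.8 in an exact two-sided permutation test, whose smallest possible p with 3 against 3 libraries is 0.1. The high ratio of KO2775 came with its count of 0 for Cela2a, and without KO2775 the difference turned to -0.53. Within litter 1 the difference was 1.54 and in litter 2 it was -1.51.

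The surroundings of the pair were sparsely counted. Within 100 kb of Cela2a the annotation has 11 genes, itself included, and 6 of them had a row. Apart from Casp9, the highest count of any of these in a library was 9, for Fhad1os2, an antisense transcript of Fhad1. Its counts were 9, 4 and 6 in WT and 8, 1 and 1 in flox/flox libraries. Fhad1 had 8, 7 and 3 counts in WT and 2, 3 and 2 in flox/flox libraries. Efhd2 and Ddi2, which encodes a protease of the ubiquitin system, had at most 3 counts in any library. Of the 6 genes with a row in this stretch only Casp9 passed 9 counts in a library, and Agmat, Dnajc16, Ctrc, Ctrcos and Gm29367 had no row.

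Values of the enzyme genes are given in the order WT2772, WT2777 and WT2931, then KO2775, KO2776 and KO2938. Of the serine proteases, Ctrb1, on chromosome 8, encodes the precursor of chymotrypsin B and had 5, 5 and 10 counts in the WT libraries. The flox/flox libraries had 3, 2 and 2 counts. Every flox/flox library lay below every WT library, also in CPM, and the ratio was 0.43 (0.15 to 1.06). Cela1, the other elastase with a row, lies on chromosome 15. It had 3, 3 and 4 counts in WT and 2, 1 and 0 counts in flox/flox libraries. Here too the groups did not overlap, with a ratio of 0.37 (0.065 to 1.44). Prss2, on chromosome 6, encodes a trypsinogen, the precursor whose active form switches on the other enzymes. Its counts were 1, 3 and 0 in WT and 2, 3 and 2 in flox/flox libraries. These groups overlapped and Prss2 ran the other way, with a ratio of 2.16 (0.55 to 10.1). Prss2 belongs to a family of near-identical trypsinogen genes, among which reads can be split or lost, so its counts are uncertain.

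Of the carboxypeptidases, which trim amino acids from the end of peptides, Cpb1 on chromosome 3 prefers basic residues. It was counted 4, 6 and 4 times in WT and 0, 1 and 2 times in flox/flox libraries. The groups did not overlap, and the ratio of 0.26 (0.049 to 0.95) was the lowest among the enzyme genes with a row that were chosen here. Cpa1, on chromosome 6, releases aromatic and aliphatic residues. It was counted 4, 16 and 3 times in WT and 4, 2 and 4 times in flox/flox libraries. WT2777 stood apart with 16 counts, the other 5 libraries overlapped, and the ratio was 0.54 (0.23 to 1.17). In CPM WT2777 had 20.8, against 5.49 in WT2772 and 4.06 in WT2931. The flox/flox libraries had 5.92, 3.52 and 6.99, so the ratio below 1 rested on WT2777. Pnlip, on chromosome 19, encodes pancreatic lipase, which splits dietary triglycerides. It was counted 7, 12 and 6 times in WT and 7, 1 and 6 times in flox/flox libraries. The groups overlapped, with the lowest count in KO2776, and the ratio was 0.69 (0.33 to 1.38).

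Per kb of exon the enzyme genes stood at 7.28 CPM for Ctrb1, 4.45 for Cpa1, 4.24 for Pnlip, 3.48 for Prss2, 2.28 for Cela2a, 1.31 for Cela1 and 1.21 for Cpb1. With 11 to 39 counts each over 6 libraries, neighbours in this order did not differ beyond counting error, and even for Ctrb1 over Cpa1 the exact 95% interval of the ratio per length, 0.943 to 2.80, held 1. None of the 6 other than Cela2a had an exon overlap on the opposite strand. Of the 7 genes, 3 had a CPM in every flox/flox library below every WT library (Ctrb1, Cela1 and Cpb1), against 690 of all 15286 genes (4.51%). The 7 genes were chosen with these counts known, and nothing is read from that share. Their summed counts were 29, 49 and 29 in WT and 18, 12 and 19 in flox/flox libraries, so the sum was lower in each mutant than in any WT library. The 156 counts of the 7 genes in all libraries compare with 8768 counts of Casp9.

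**Figure D2:**
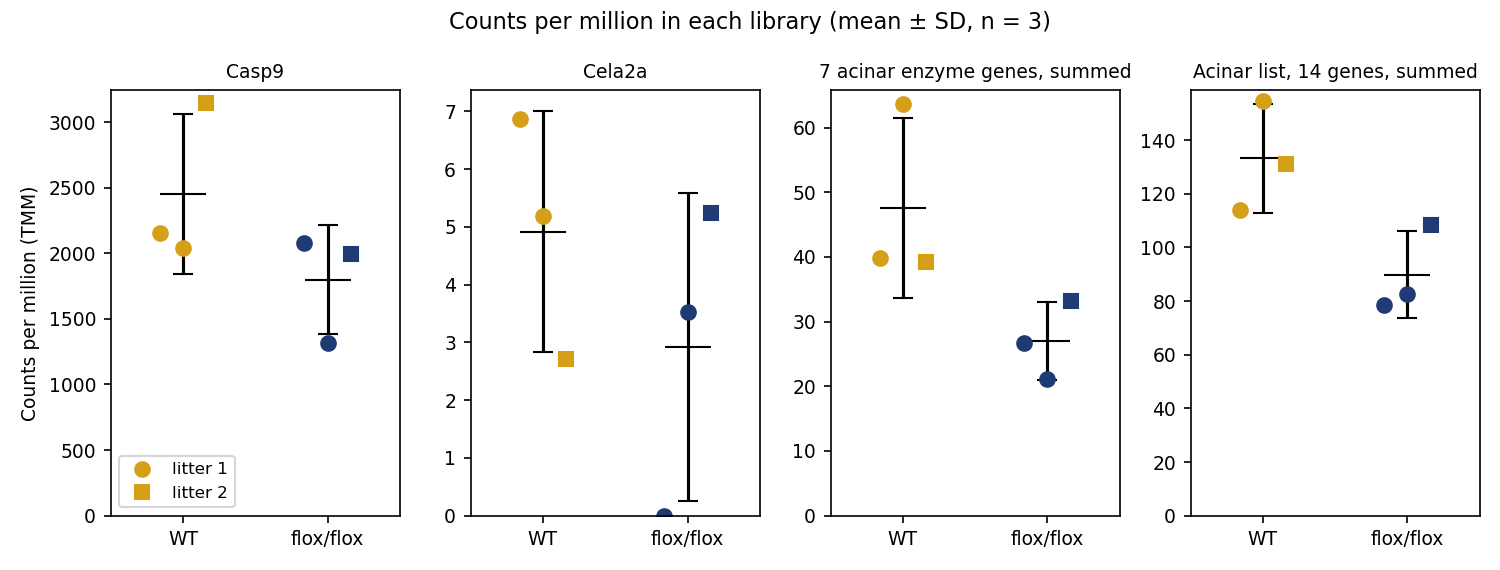
CPM (vertical axes from 0, 1 scale per panel) of Casp9, of Cela2a, of the 7 enzyme genes summed and of the 14 acinar list genes summed, in WT (yellow) and flox/flox (blue) libraries, with litter 1 as circles, litter 2 as squares and mean ± SD (n = 3) in black. The groups overlapped for Casp9 and Cela2a, whereas in both sums the 3 flox/flox libraries lay below the 3 WT libraries.

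A wider list of 45 genes of acinar cells was sparsely counted too. Only 14 of them had a row, and amylase (Amy2a1 to Amy2a5, Amy2b and Amy1), colipase (Clps), Prss1 and the acinar transcription factor gene Ptf1a were among the 31 without, which were not analysed here. The most abundant was Cel, the gene of bile salt-dependent lipase. It had 26, 23 and 28 counts in WT and 14, 17 and 18 in flox/flox libraries. All flox/flox counts of Cel were below all WT counts, but the CPM overlapped, and its log2 fold change was -0.34 (SE 0.31) with an adjusted p of 1.00 in edgeR. Ctrl, a chymotrypsin-like protease, had 12, 18 and 20 counts in WT and 8, 9 and 10 in flox/flox libraries. Its groups overlapped in CPM too, and the log2 fold change was -0.57 (SE 0.37) with an adjusted p of 1.00 in edgeR. Cel and Ctrl were the 2 list genes that passed the filter, and neither was called by edgeR nor had an unadjusted p under 0.05. Neither belonged to the 202 of 5478 tested genes (3.69%) whose CPM was lower in every flox/flox than in every WT library.

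Bhlha15, a transcription factor that maintains the secretory state of acinar cells, had 5, 9 and 9 counts in WT and 1, 2 and 4 in flox/flox libraries, a ratio of 0.38 (0.14 to 0.90). By counts the groups were apart, and in CPM KO2938 was slightly above WT2772. Rbpjl, which works in a complex with Ptf1a, had 8, 9 and 5 counts in WT and 6, 4 and 5 in flox/flox libraries, and its groups overlapped. The ratio of flox/flox to WT was below 1 for 12 of the 14 genes, with a median of 0.61, while the median over all genes was 0.975 and 53.5% of them were below 1. The exceptions were Prss2 and Erp27, a chaperone of the endoplasmic reticulum, and the ratio of Cpa1 was below 1 only through WT2777. The list was chosen with earlier results of these data known, and nothing is read from the number of ratios below 1 or from their median. Erp27 had 1 count in every WT and 2 counts in every flox/flox library, and so was the 1 list gene of the 14 with a higher CPM in all mutants, a pattern of 699 of all 15286 genes (4.57%).

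Summed over the 14 genes, the list held 83, 119 and 97 counts in the WT and 53, 47 and 62 in the flox/flox libraries. In CPM these sums were 114, 154 and 131 in WT and 78.5, 82.8 and 108 in flox/flox libraries. The groups did not overlap, with KO2938 the closest to WT. The mean was 133 ± 20.4 CPM in WT and 89.9 ± 16.2 CPM in flox/flox islets (SD, n = 3 each), a difference of -43.3 CPM. As a percentage of all counts the mean was 0.0136 ± 0.0016 in WT and 0.00788 ± 0.00028 in flox/flox islets, a difference of -0.00576. The difference was negative within each litter, but which litter had the larger one depended on the scale. In CPM it was -53.5 in litter 1 and -22.8 in litter 2. In percent of all counts, of which AY036118 took 41.0% in KO2938, it was -0.00549 in litter 1 and -0.0063 in litter 2. In percent of the counts without the 10 most abundant genes it was -0.00827 in litter 1 and -0.00311 in litter 2. No p is given for the difference of the sum, since the list holds genes chosen with these counts known. An exact permutation test of 3 against 3 libraries would also allow no p below 0.1. Whether these counts measure the genes' own mRNA was not tested. Even if they do, fewer acinar cells and less acinar RNA per cell cannot be told apart in tissue RNA of this kind.

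Casp9 and the acinar sum peaked in different libraries. Its counts were 19.0 times the 461 counts of the whole acinar list. Casp9 was highest in WT2931, whereas the acinar sum was highest in WT2777, the WT library with the lowest CPM of Casp9. Across the 6 libraries, which share their scaling, Pearson's r of log2 CPM with Casp9 was 0.36 for Cel, 0.55 for Ctrl and 0.55 for the acinar sum. Among 3515 genes with a mean of at least 20 counts, Cel came at rank 1007 in likeness to Casp9. The 5 genes most like Casp9 were Osbpl9 (r = 0.99), Gm45887 (0.98), Fancc (0.97), Gm17354 (0.97) and Iars2 (0.96), all with n = 6. Osbpl9, an oxysterol-binding protein gene also on chromosome 4, had 144, 153 and 167 counts in WT and 134, 99 and 114 in flox/flox libraries. Fancc, of the Fanconi anaemia DNA repair pathway, had 386, 403 and 480 counts in WT and 335, 244 and 283 in flox/flox libraries. Of these 5 genes, 4 (all but Gm45887) have exons that overlap exons on the opposite strand, but so do most genes of this abundance: of the annotated genes with a mean of at least 20 counts, 2534 have such an overlap and 971 do not. Like Casp9, Osbpl9 and Fancc were highest in WT2931 and lowest in KO2776, over a narrower range.

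Genes of other cell types were read beside Casp9 and the enzymes, and their part in either difference was not tested. All 18 endocrine genes had a row. Their sums were 987, 1253 and 1369 counts in WT and 956, 893 and 880 in flox/flox libraries, with Abcc8, a subunit of the ATP-sensitive potassium channel, the most abundant. Abcc8 was called between litters by edgeR, with a log2 fold change of 1.18 for litter 2 over litter 1, and glucagon (Gcg) had -1.13, with an adjusted p of 0.0027 in edgeR. Ins2 had 157, 205 and 158 counts in WT and 165, 128 and 96 in flox/flox libraries, so Casp9 was counted more often than Ins2 in every library. Of 10 ductal genes 3 had a row, and Krt19 was not among them. Krt7 had 24, 16 and 33 counts in WT and 27, 14 and 36 in flox/flox libraries, and Muc1 had 14, 13 and 22 in WT and 6, 4 and 17 in flox/flox libraries. Krt7 and Muc1 were called higher in litter 2 by edgeR, with adjusted p-values of 0.042 and 0.035. Of 8 endothelial genes 6 had a row, with sums of 29, 43 and 30 in WT and 38, 22 and 21 in flox/flox libraries, Eng as the most abundant and 2 counts of Pecam1 in each library. Of 8 immune genes 4 had a row, with sums of 144, 179 and 171 in WT and 147, 120 and 114 in flox/flox libraries. Most of this was Csf1r, whose exons overlap those of Hmgxb3 on the opposite strand, and Ptprc had no row. Cd68, a marker of macrophages, had 12, 5 and 8 counts in WT and 3, 1 and 2 in flox/flox libraries, a ratio of 0.30 (0.099 to 0.74). Its CPM was lower in every mutant than in every WT library, a pattern of 690 of all 15286 genes (4.51%). The other 3 immune genes did not share this: the ratio was 2.47 for C1qa, which macrophages also express, 1.33 for Cd74 and 0.966 for Csf1r, and the median of the list was 1.15. Of 10 stromal genes 4 had a row, with sums of 12, 11 and 8 in WT and 6, 9 and 9 in flox/flox libraries, Acta2 as the most abundant and no row for Col1a1. No gene of these lists was called between the genotypes by edgeR without the block.

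Within its own pathway Casp9 stood alone in level. Of 33 genes of intrinsic apoptosis 21 had a row, and the 20 other than Casp9 together held 2066 counts over the 6 libraries, against 8768 for Casp9, 4.24 times as many. Apaf1, the scaffold of the apoptosome that activates caspase 9, and Cycs, which encodes cytochrome c, had no row. The same held for Casp8, the initiator of the extrinsic pathway. Casp6 had 10, 11 and 16 counts in WT and 12, 7 and 9 in flox/flox libraries, and Casp2 had at most 5 in any library. Of the 3 caspase genes named here with a row, only Casp9 had more than 16 counts in a library.

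The next most abundant gene was Htra2, a mitochondrial protease that counters inhibitors of apoptosis. It had 142, 111 and 127 counts in WT and 107, 83 and 67 in flox/flox libraries, a mean of 106. Htra2 shares with Casp9 that its exons overlap exons on the opposite strand, here those of Loxl3 and Aup1. The same was true of Bid, Endog, Bad, Bak1 and Diablo. These 7 apoptosis genes had a median of 54.2 counts per library and 30.2 CPM per kb, both taken over the means of the genes. The other 14 had a median of 2.08 counts per library and 1.36 CPM per kb, and the highest mean count among them was 10.8, for Casp6. Over all genes, the median was 13.0 counts for the 6063 genes with such an overlap and 3.33 counts for the 9195 without. In the acinar list the 2 genes with an overlap and a row, Cela2a and Rbpjl, had a median of 4.42 counts and the other 12 had 3.83, while per kb of exon the order turned, with medians of 1.92 and 2.76 CPM. Opposite the acinar genes lie, beside Casp9, Ptf1aos, with 1, 3 and 7 counts in WT and 4, 0 and 3 in flox/flox libraries, and Matn4, which had no row.

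**Figure D3:**
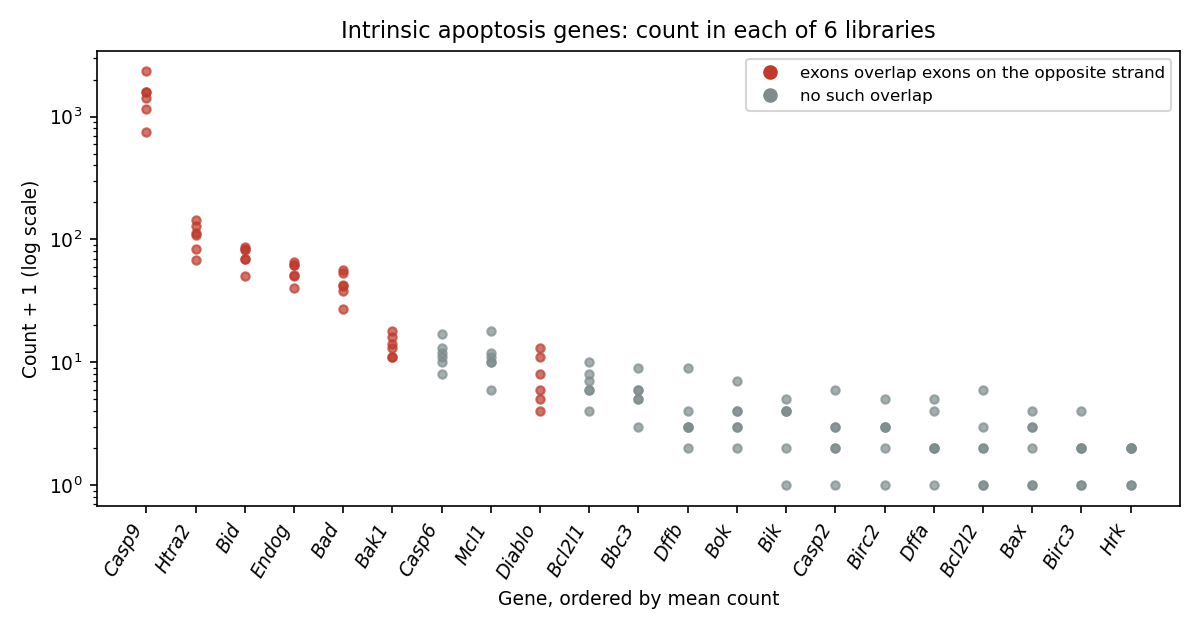
Count plus 1 (vertical axis, log scale) of each of the 21 genes of intrinsic apoptosis with a row, ordered by mean count on the horizontal axis, with 1 point per library (n = 6) and in red the genes whose exons overlap exons on the opposite strand. Casp9 lies above all others in every library, and 6 of the 7 genes in red come first in the order.

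Of the apoptosis genes 7 passed the filter (Casp9, Htra2, Bid, Endog, Bad, Bak1 and Mcl1). Their median log2 fold change between the genotypes was -0.22 (all genes -0.01) and between the litters -0.15 (all genes -0.01). None was called between the genotypes by edgeR without the block, and 1 of the 7, Casp9, was called between litters, where 620 of all 5478 genes (11.3%) were called, so the list holds about the share of all genes. Bak1, which forms pores in the outer mitochondrial membrane upstream of caspase 9, had 10, 12 and 10 counts in WT and 17, 15 and 13 in flox/flox libraries. The groups of Bak1 did not overlap, with a log2 fold change of 0.79 (SE 0.33), an unadjusted p of 0.034 and an adjusted p of 1.00 in edgeR. Bax, the other pore former, ran the other way without overlap, with 2, 2 and 3 counts in WT and 0, 0 and 1 in flox/flox libraries, but did not pass the filter. Of the 21 apoptosis genes with a row, the CPM was lower in every mutant than in every WT library for 2 (4.51% of all genes) and higher for 3 (4.57% of all genes). Bak1 also has an overlap on the opposite strand, with Ggnbp1, and its counts are uncertain as to strand like the others.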

How the data were processed

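Strand-specific libraries of total islet RNA were sequenced from 6 mice, 3 per genotype, with groups and litters taken from the sample labels. The authors discarded rRNA reads, mapped the rest to mm10 with HISAT2 2.1.0, counted reads per Ensembl gene with HTSeq at near-default settings, and deposited the counts without normalization. Every gene in the table has at least 3 counts in all. The authors' own DESeq2 table (mean count, log2 fold change, standard error, Wald statistic, p-value and adjusted p-value) was not used. All count columns matched a sample (0 did not).

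Of 15286 genes, 15258 were matched by identifier to GENCODE M21 (GRCm38), a later annotation than that of the authors, which gave positions, exon lengths and exon overlaps on opposite strands. Counts were tested in edgeR 4.0.16 (R 4.3.3) by the quasi-likelihood test with TMM normalization, the default filter (minimum count 10) and Benjamini-Hochberg adjustment over the 5478 genes kept. Genotype was the only term, as the study gives no formula. Litter was compared, and used as a block, in a model with both terms. For quantities with a single value per library, the block was instead the plain mean of the differences within litters. SEs are those implied by the F statistic. Ratios of summed counts carry exact 95% conditional binomial intervals, and log2 CPM used a prior count of 2. The scripts were checked on simulated data.

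The labels mark shared litters, and litter therefore pairs them. As a check, deviations of each gene from its genotype mean correlated at 0.27, 0.14, 0.16, 0.18 and 0.46 for WT and flox/flox libraries of 1 litter. Across litters the values lay between -0.35 and -0.25. Deviations cancel within a genotype, so positive values within a litter force negative ones across litters, which are no separate check.

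The genes and all lists were chosen with earlier results of these data known. Genes named were the 9 chosen, the 5 most like Casp9, acinar list genes with a mean of at least 5 counts, genes opposite acinar genes or within 100 kb of Cela2a, apoptosis genes past an unadjusted p of 0.05 or central to the apoptosome, and the most abundant and defining genes of other lists. Any further gene was picked with its values in view. Some genes of the lists are not reported here. Alternatives were RLE, upper quartile or no normalization beyond library size, TMM without the 10 most abundant genes, DESeq2 1.42.0, no or a stricter filter, robust estimation, litter as a block, other denominators and pseudocounts, and each library left out. CPM of the acinar sum was added after seeing the data.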

Additional observations from a re-analysis of the deposited data

How the results depend on the processing

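The log2 fold change of Casp9 between the genotypes was negative and not called in all 15 alternatives (-0.67 to -0.21, adjusted p 0.51 to 1.00). Between litters it was positive in all 15 (leave-one-out range 0.24 to 0.59), but not past the threshold with upper quartile normalization (0.37, adjusted p 0.063), library size only (0.22, 0.73) or DESeq2 (0.45, 0.48), nor without WT2772, WT2777, WT2931 or KO2776. Over these alternatives the adjusted p was 0.0023 to 0.73. The genes called between genotypes were 0 (101 at an unadjusted p under 0.05), 2 with library size only, where the median of all genes shifted by -0.23 on the log2 scale, 3 with the paired fit (litter as replicate block) and 0 to 1 with a library left out (1 without KO2938). Those called between litters were 620, and 265 with library size only (median shift -0.19), 171 with DESeq2 and 233 to 540 with a library left out (233 without WT2931). The cause was not tested. The block changed no call for Casp9, Cel or Ctrl. The acinar difference in percent of counts was -0.00247 with the 7 enzyme genes with a row alone, and -0.00664 to -0.00508 with a library left out. In CPM, added after seeing the data, it was -52.9 to -32.6. The ratio of Casp9 to Cela2a differed by 0.52 on the log2 scale and by 0.22 with 1 in place of 0.5 added to each count. As the plain mean of the differences within litters, 1.54 in litter 1 and -1.51 in litter 2, it was 0.01. That mean gives both litters equal weight, although litter 2 has fewer libraries. With a library left out the difference of the ratio ran from -0.53 (without KO2775) to 1.08. At 0 to 16 counts per library, depth limits every statement on the enzyme genes, and whether these counts measure the enzymes' own mRNA or RNA of the opposite strand was not tested.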
